A study of Rattus norvegicus with 9 samples.

Results

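Immediate early genes were examined in the dorsal root ganglia (DRG) of rats with a nerve injury, with and without a blocker of the G protein-coupled oestrogen receptor (GPER). The members were the 10 genes of the deposited gene table, out of 20194, whose symbol was Fos, Fosb, Fosl1, Fosl2, Junb, Jund, Egr1, Arc, Npas4 or Nr4a1, and all 10 were present in it. RNA-Seq was done on DRG tissue of male Sprague Dawley rats, aged 8 to 10 weeks in the methods, in 3 groups of 3 libraries. The sham group had surgery without nerve injury, and the SNI group had spared nerve injury, in which some branches of the sciatic nerve are cut and another is left intact. The SNI + G15 group had the same injury and received G15, an antagonist of GPER, at 1.8 μg/μl through an intrathecal catheter, which the labels place on day 5 of SNI with injection for 24 h in 2% DMSO. The same catheter day, injection time and DMSO percentage are recorded for all 9 libraries, while the methods give another DMSO percentage. The titles call the sham and SNI libraries controls for G15. Whether those rats in fact received the vehicle or a catheter is not stated outright, so G15 cannot be told apart from them in these groups. Each ganglion holds injured and uninjured neurons besides glia, vascular and immune cells, so fewer cells of a type and less RNA per cell cannot be told apart in these bulk values. The tissue was taken as DRG from the source name and characteristics in the labels, while the extraction text of the labels names another cell type. The 12 neuron markers examined summed to between 27300 and 37133 CPM (counts scaled to library size) per library. That sum describes the libraries and is no test of the tissue.

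Immediate early genes are transcribed within minutes of a stimulus, before new protein is made, from promoters that MAP kinases and calcium signals reach through serum response factor and CREB. In the nervous system they are known as markers of neuronal activity, and in sensory ganglia as part of the response of neurons and glia to axotomy. Fos and Jun proteins pair to form AP-1, a transcription factor whose properties depend on which family members are present, and Egr1, Npas4 and Nr4a1 are transcription factors with other binding sites, while Arc acts at synapses.

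Promoter windows were at hand for 8 of the 10 members, Fos and Arc being without one, and the 3 below are examples. Egr1 and Junb were higher in SNI than in sham, as were Fosl1 and Fosl2, which are not printed. Jund did not pass the test in that comparison. Each is the 300 bases from 250 before the RefSeq start to 50 from it on, in the rat build GRCr8 and read 5′ to 3′ on the gene's own strand, with every match to the searched letters in capitals. They are for Egr1 (chr18:26736828-26737127, plus strand), Junb (chr19:40080876-40081175, plus strand) and Jund (chr16:18769722-18770021, minus strand).
Egr1: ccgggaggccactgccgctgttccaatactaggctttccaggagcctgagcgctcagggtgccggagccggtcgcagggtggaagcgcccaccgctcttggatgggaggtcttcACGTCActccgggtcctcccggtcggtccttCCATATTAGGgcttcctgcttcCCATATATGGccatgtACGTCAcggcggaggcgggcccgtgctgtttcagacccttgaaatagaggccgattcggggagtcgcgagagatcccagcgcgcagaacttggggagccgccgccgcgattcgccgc
Junb: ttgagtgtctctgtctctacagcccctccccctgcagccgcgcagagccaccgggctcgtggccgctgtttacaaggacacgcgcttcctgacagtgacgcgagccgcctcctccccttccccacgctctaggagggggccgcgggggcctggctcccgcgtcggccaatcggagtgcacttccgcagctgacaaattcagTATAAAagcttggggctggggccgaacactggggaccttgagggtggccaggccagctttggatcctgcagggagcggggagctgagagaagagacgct
Jund: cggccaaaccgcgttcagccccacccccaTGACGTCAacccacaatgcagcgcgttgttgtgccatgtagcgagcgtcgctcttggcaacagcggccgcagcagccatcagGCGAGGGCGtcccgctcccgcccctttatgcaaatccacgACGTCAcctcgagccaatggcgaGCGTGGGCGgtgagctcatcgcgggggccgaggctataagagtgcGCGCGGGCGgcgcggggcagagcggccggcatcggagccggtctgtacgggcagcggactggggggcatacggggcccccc

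Both strands were searched for the CArG box of serum response factor, the CRE TGACGTCA of CREB and its part TGACGT, the AP-1 element TGACTCA, the Egr element GCGNGGGCG, the STAT element TTCCNGGAA and the letters TATAAA, and TGACGT lies within every TGACGTCA. The Egr1 window held CArG boxes starting 105 and 83 bases before the start, and 1.64% of all 33469 RefSeq windows of this length held at least 1. It also held TGACGT 136 and 67 bases before the start, found in 7.94% of all windows. The Jund window held a full CRE 221 bases before the start (1.83% of all windows) and Egr elements at 139, 76 and 31 bases before it (4.98% of all windows). A further TGACGT, outside that CRE, lay 99 bases before the start of Jund. The Junb window held TATAAA 49 bases before its start, as 14.2% of all windows did, and none of the other letters. In the remaining windows, Fosl2 and Nr4a1 held the Egr element and Fosb held TATAAA. A match describes letters only, and TGACTCA (4.63% of all windows) and TTCCNGGAA (1.27%) were found in none of the 8 windows.

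In sham ganglia the levels of the members, in FPKM (fragments scaled to gene length and library size), ran from 112 ± 13.3 for Jund to 0.027 ± 0.0058 for Npas4 (SD, n = 3). Jund, which encodes the Jun protein that most resting cells hold, was followed by Nr4a1 at 22.1 ± 1.19 FPKM, Junb at 11.8 ± 0.74, Egr1 at 5.37 ± 1.16 and Fos at 1.97 ± 0.22 (SD, n = 3). The ranges of neighbours in that part of the order did not overlap. Arc, Fosl2 and Fosl1 came next at 1.31, 1.28 and 1.03 FPKM, with overlapping ranges, before Fosb at 0.33 and Npas4. After SNI, Junb stood above Nr4a1 (24.7 ± 1.08 against 22.1 ± 0.70 FPKM; SD, n = 3), and Fos, at 8.29 ± 0.75, lay in the range of Egr1, at 7.90 ± 0.50. In SNI + G15, Fos (11.8 ± 0.94) lay above Egr1 (8.70 ± 0.23) in every library, and Fosl1 and Fosl2 overlapped. The place of Nr4a1 moved from the second to the third while its own level stayed between 21.3 and 24.3 FPKM in all 9 libraries. An FPKM of 1 in at least 1 library, the minimum for testing, was reached by 8 of the 10 members and missed by Fosb and Npas4.

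**Figure D1:**
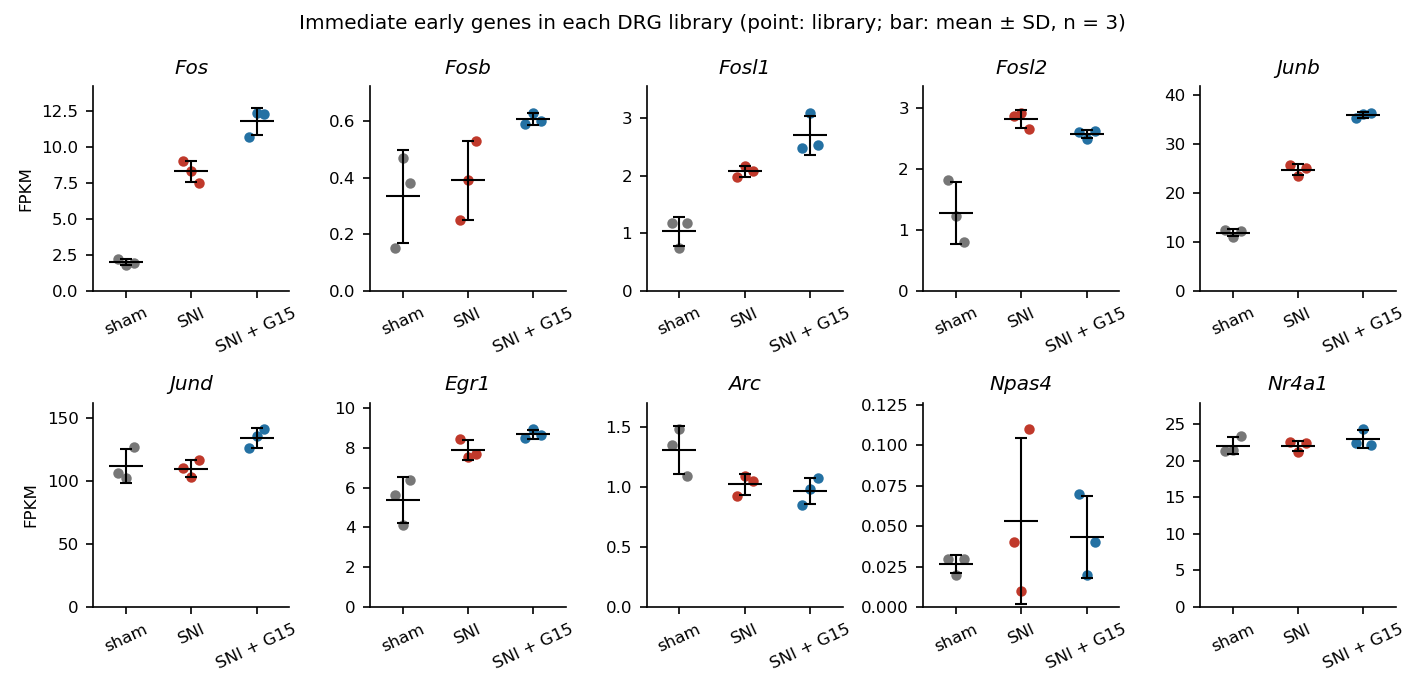
FPKM of each of the 10 immediate early genes (one panel per gene, each with its own linear axis from 0) in each group. Points are single libraries, and bars are the mean ± SD of 3 libraries; Fos and Junb step up between each group and the next, while Nr4a1 stays between 21.3 and 24.3 FPKM.

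The first comparison asked how the members stood after injury. Between SNI and sham, 5 of the 8 tested members were higher (adjusted p below 0.05; edgeR, quasi-likelihood test, Benjamini-Hochberg adjustment over 14305 genes), namely Fos, Junb, Fosl1, Fosl2 and Egr1, and none was lower. DESeq2 and limma-trend also called 5 higher and 0 lower, and at an unadjusted p below 0.05 in edgeR 1 member, Arc, was lower. Over all tested genes, 23.3% were called higher and 22.4% lower in this comparison. The median log2 fold change of the 8 members was 0.76, against 0.0010 over all tested genes. The values of the SNI and sham libraries did not overlap for 6 of the 10 members, all 6 among the 8 tested, where 55.3% of all tested genes did not overlap.

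Fos, the AP-1 subunit best known as a mark of recent neuronal activity, had 2.22, 1.8 and 1.90 FPKM in sham libraries 1 to 3, 9.01, 8.35 and 7.51 in SNI, and 10.7, 12.4 and 12.3 in SNI + G15. Each group lay wholly above the one before it. The rise from sham to SNI was 4.11-fold, or 2.04 on the log2 scale (standard error 0.12, adjusted p = 2.41e-07, edgeR), from between 53 and 65 estimated reads per sham library to between 220 and 265. It was the largest change among the members and ranked at 223 of 14305 genes by p. The reads came from 1 annotated transcript, so no isoform was divided from another.

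Fosl1 (Fra-1), a Fos relative without the strong activation domain of Fos, had 1.18, 0.74 and 1.17 FPKM in sham, 1.98, 2.17 and 2.08 in SNI, and 2.48, 3.10 and 2.54 in SNI + G15. Its 3 groups did not overlap, and it rose 1.98-fold from sham to SNI (log2 0.98, standard error 0.21, adjusted p = 0.0032). Fosl2 (Fra-2), the other Fos-related antigen, had 1.81, 1.23 and 0.79 FPKM in sham, 2.87, 2.92 and 2.65 in SNI, and 2.60, 2.49 and 2.62 in SNI + G15. It rose 2.15-fold after injury (log2 1.11, standard error 0.28, adjusted p = 0.00804). The sham libraries of Fosl2 were spread more widely than those of the other called members, with a coefficient of variation of 39.9% at 14 to 32 reads per library, against 5.03% in SNI. Fosb, which also encodes the long-lived ΔFosB, had 0.15, 0.47 and 0.38 FPKM in sham and 0.25, 0.39 and 0.53 in SNI, so these groups overlapped. At 9 to 38 estimated reads per library it stayed below the filter. In a fit without that filter its log2 fold change from sham to SNI was 0.18 (95% interval -0.60 to 0.96, adjusted p = 0.762, edgeR). Intervals here and below use a normal multiplier and are somewhat too narrow.

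Of the Jun family, Junb, a partner of Fos that many stimuli induce, had 12.3, 10.96 and 12.2 FPKM in sham, 25.6, 23.5 and 25.1 in SNI, and 35.2, 36.0 and 36.3 in SNI + G15. The libraries within a group differed little, and the 3 groups stood apart. Junb rose 2.05-fold from sham to SNI (log2 1.03, standard error 0.062, adjusted p = 3.62e-07), at 364 to 405 reads per sham library and 779 to 846 per SNI library. Jund had 106, 102 and 127 FPKM in sham, 110, 103 and 116 in SNI, and 126, 136 and 141 in SNI + G15. Sham and SNI overlapped, with a log2 fold change of -0.057 and a 95% interval of -0.21 to 0.093 (adjusted p = 0.573). The deposited table gave equal values to the 2 annotated transcripts of Jund in each library, so they cannot be told apart.

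Egr1, a zinc finger transcription factor that growth factors and neuronal activity induce, had 5.63, 4.10 and 6.37 FPKM in sham, 8.47, 7.53 and 7.71 in SNI, and 8.49, 8.94 and 8.66 in SNI + G15. All SNI libraries lay above all sham libraries, and the rise was 1.44-fold (log2 0.53, standard error 0.13, adjusted p = 0.00863). Arc, whose product acts in synaptic plasticity, had 1.35, 1.48 and 1.09 FPKM in sham, 0.92, 1.09 and 1.05 in SNI, and 0.85, 0.98 and 1.07 in SNI + G15. Between SNI and sham its read counts, scaled to library size, did not overlap, but the log2 fold change of -0.38 (95% interval -0.69 to -0.069) did not pass the test (adjusted p = 0.0735). It passed without sham library 3 (log2 -0.48, adjusted p = 0.0419) and with an offset for gene length (log2 -0.47, adjusted p = 0.0278). The main annotated transcript of Arc held between 0.61 and 1.27 FPKM per library, and a second held between 0.10 and 0.31.

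Nr4a1 (Nur77), an orphan nuclear receptor that activity and inflammatory signals induce in many cells, had 21.4, 21.4 and 23.5 FPKM in sham, 22.5, 21.3 and 22.4 in SNI, and 22.4, 24.3 and 22.2 in SNI + G15. The 3 groups overlapped. Between SNI and sham its log2 fold change was -0.031 with a 95% interval of -0.13 to 0.072 (adjusted p = 0.659), at 988 to 1125 reads per library, and 1 of its 4 annotated transcripts held most of the reads in every library (19.5 to 24.3 FPKM). Npas4, a transcription factor that is largely particular to neurons and answers calcium entry, had 3, 2 and 3 reads in sham, 2, 1 and 5 in SNI, and 4, 1 and 2 in SNI + G15. These counts were too few for a fold change, and a difference was not detectable at this depth.

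**Figure D2:**
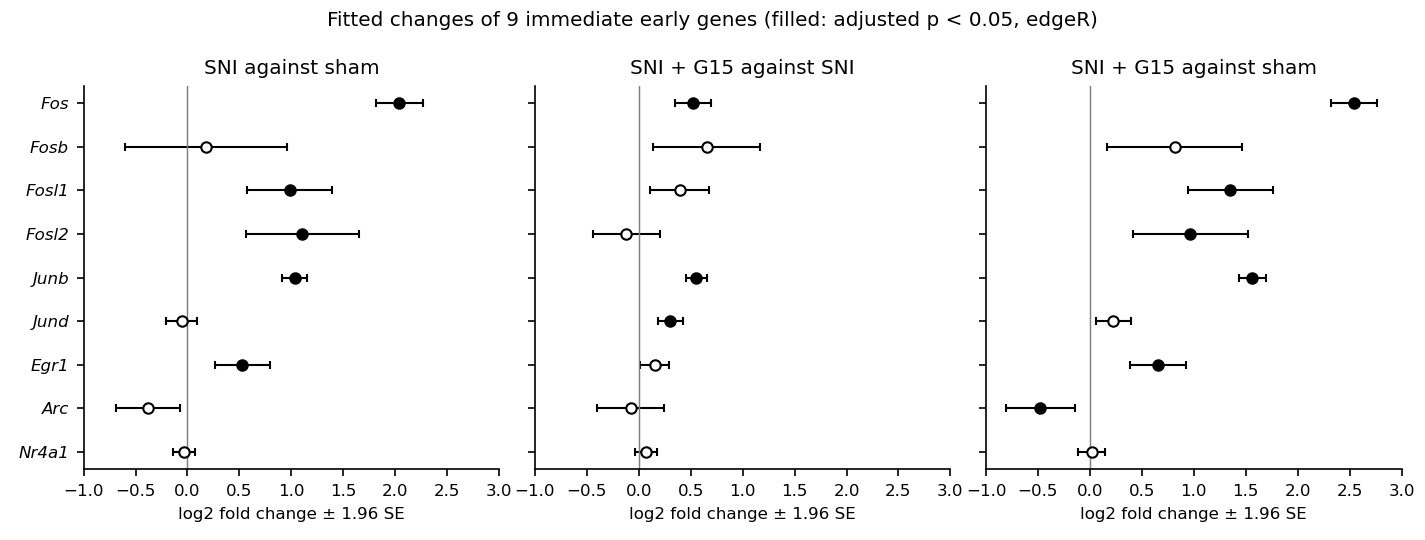
Fitted log2 fold changes of 9 immediate early genes in the 3 comparisons, with bars for the approximate 95% interval (normal multiplier). Filled points passed an adjusted p of 0.05 (edgeR). Fos and Junb lie right of 0 in all 3 panels, Fosb was below the filter and comes from a fit without it, and Npas4 is left out.

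The second comparison asked whether G15 changed these levels in injured rats. Between SNI + G15 and SNI, 3 of the 8 tested members were higher and none lower, and the 3 were Fos, Junb and Jund. DESeq2 and limma-trend gave the same counts, and at an unadjusted p below 0.05 in edgeR 4 members were higher and 0 lower. Over all tested genes, 7.98% were higher and 7.25% lower. The median log2 fold change of the 8 members was 0.23, against 0.0063 over all tested genes. Groups did not overlap for 6 of the 10 members, 5 of them among the 8 tested, where 38.9% of all tested genes did not.

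Fos was 1.44-fold higher in SNI + G15 than in SNI (log2 0.52, standard error 0.091, adjusted p = 0.00656), and Junb was 1.47-fold higher (log2 0.55, standard error 0.052, adjusted p = 0.000336). For both, the lowest SNI + G15 library exceeded the highest SNI library. Jund, the most abundant member, was 1.23-fold higher (log2 0.30, standard error 0.061, adjusted p = 0.0127), at 3907 to 4435 reads per library against 3217 to 3607. The call of Jund was lost without SNI library 1 (log2 0.31, adjusted p = 0.0501) and without SNI library 2 (log2 0.26, adjusted p = 0.0633), while Fos and Junb stayed past the threshold under every alternative run.

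The other members did not pass. Fosl1 had a log2 fold change of 0.39 (95% interval 0.11 to 0.68, adjusted p = 0.104) and Fosb one of 0.66 (95% interval 0.14 to 1.17, adjusted p = 0.152), and neither overlapped between the groups. Egr1 did not overlap either, at a log2 fold change of 0.15 (adjusted p = 0.181, unadjusted p = 0.0644, edgeR). Its approximate 95% interval, 0.011 to 0.29, uses a normal multiplier smaller than that of the test and is too narrow. The values were -0.12 for Fosl2 (95% interval -0.44 to 0.20), -0.079 for Arc (-0.40 to 0.24) and 0.071 for Nr4a1 (-0.034 to 0.17), each with overlapping groups.

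Shorter genes were on the whole higher in SNI + G15 than in SNI. The median log2 fold change of all tested genes, in 4 equal classes of the gene length that counts and FPKM imply, was 0.14 in the shortest class, 0.043 in the second, -0.018 in the third and -0.097 in the longest. Fos, Fosl1, Junb and Jund, at 1.58 to 1.78 kb, lay in the second class, Fosl2 and Egr1 in the shortest, and Fosb, Arc and Nr4a1 in the third. With a length offset in the fit, an alternative added after the data were seen, the log2 fold changes of Fos, Junb and Jund were 0.47, 0.51 and 0.26 (adjusted p = 0.00766, 0.000212 and 0.0202, edgeR), and all 3 remained called. Within the SNI + G15 group, library 1 had the lowest scaled read count for 8 of the 10 members.

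The third comparison set SNI + G15 against sham. It shares its libraries with the other two, so its values are given beside theirs and are no separate support. Of the 8 tested members, 5 were higher and 1 was lower in edgeR, where 21.4% of all tested genes were higher and 21.9% lower. DESeq2 and limma-trend each called 6 higher and 0 lower. Groups did not overlap for 7 of the 10 members, 6 of them among the 8 tested, against 53.9% of all tested genes. Fos was 5.81-fold higher than in sham (log2 2.54, standard error 0.11), beside 4.11-fold in SNI. Junb was 2.95-fold higher (log2 1.56, standard error 0.066), beside 2.05-fold, and Fosl1 was 2.55-fold higher (log2 1.35, standard error 0.21), beside 1.98-fold. Egr1 stood at 1.58-fold beside 1.44-fold, and Fosl2 at 1.95-fold beside 2.15-fold.

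The adjusted p-values of these 5 were 1.6e-07 for Fos, 1.12e-07 for Junb, 0.000554 for Fosl1, 0.00348 for Egr1 and 0.0192 for Fosl2 (edgeR). Fosl2 was no longer called without sham library 2 (adjusted p = 0.0509) or sham library 3 (adjusted p = 0.0555). Arc was lower, in the test (log2 -0.48, standard error 0.17, adjusted p = 0.043, edgeR), and the call was lost under 9 of the 16 alternatives, among them DESeq2 (adjusted p = 0.118), the fit with the replicate number as a block (0.0709), and the fits without sham library 1 (0.0973) or 2 (0.141) or SNI + G15 library 1 (0.135) or 2 (0.0852). Jund had a log2 fold change of 0.22 (95% interval 0.055 to 0.39, adjusted p = 0.0598), its groups overlapped, and it passed under 8 of 16 alternatives, including DESeq2 (adjusted p = 0.0162), the replicate block (0.0223) and the fits without sham library 3 (0.00714) or SNI + G15 library 1 (0.0365). Fosb, below the filter, had a log2 fold change of 0.82 (adjusted p = 0.0891), which passed only without sham library 2 (log2 1.16, adjusted p = 0.0468).

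Because AP-1 is built from pairs, the make-up of the Fos and Jun transcripts was set out per library in FPKM. The 4 Fos family genes summed to 5.36, 4.24 and 4.24 FPKM in sham, and to between 12.8 and 14.1 in SNI and between 16.4 and 18.6 in SNI + G15. Fos itself made up 42.9% ± 1.74 of that sum in sham, 61.0% ± 2.58 in SNI and 66.7% ± 1.36 in SNI + G15 (SD, n = 3), and the ranges of the 3 groups did not overlap. The share of Fosl2 was 27.1% ± 7.74 in sham, 20.7% ± 0.39 in SNI and 14.6% ± 1.24 in SNI + G15, and that of Fosl1 was 22.4% ± 5.08, 15.3% ± 1.17 and 15.3% ± 1.30. Shares in FPKM depend on the gene length that counts and FPKM imply, which was 0.96 kb for Fosl2, 1.58 kb for Fos and 1.66 kb for Fosl1. Not scaled to length, Fosl2 lay below Fosl1 on average, at 1.24 against 1.74 CPM in sham, 2.67 against 3.41 in SNI and 2.46 against 4.48 in SNI + G15. The sham share of Fosl2 rests on 14 to 32 reads per library. These shares are of transcripts, and protein was not measured here.

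Jun, which is not among the 10 members but is the usual partner of Fos, stood at 29.2 ± 2.16 FPKM in sham, 99.2 ± 2.44 in SNI and 105 ± 0.24 in SNI + G15 (SD, n = 3). Of the summed Jun, Junb and Jund transcripts, Jund made up 73.1% ± 1.07 in sham but 47.0% ± 0.89 in SNI and 48.8% ± 1.30 in SNI + G15. The share of Junb was 7.76% ± 0.64, 10.6% ± 0.26 and 13.1% ± 0.20, with no overlap between groups, and that of Jun was 19.1% ± 0.66, 42.5% ± 0.76 and 38.2% ± 1.10. In the sham libraries the ratio of Junb to Jund lay between 0.096 and 0.12, in SNI between 0.22 and 0.23, and with G15 between 0.26 and 0.28. The Jun family outweighed the Fos family in every library, by 33.7 ± 6.51 times in sham, 17.3 ± 1.51 times in SNI and 15.6 ± 0.69 times in SNI + G15.

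**Figure D3:**
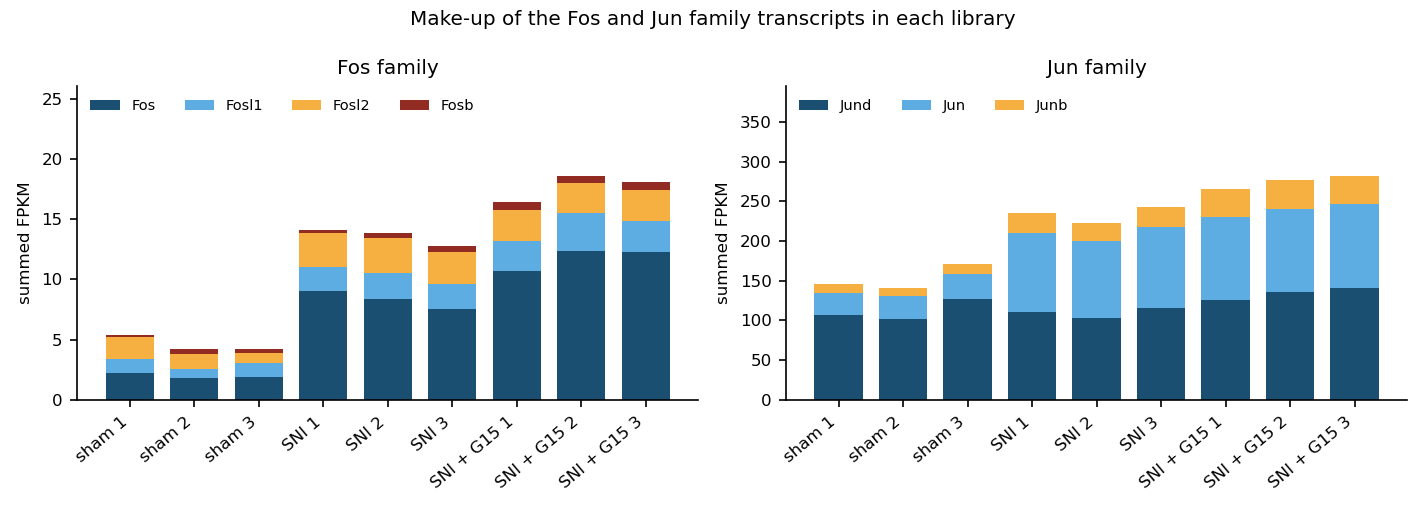
Summed FPKM of the Fos family (left) and the Jun family (right) in each of the 9 libraries, with each bar divided by gene and both axes linear from 0. The Fos part of the left bars is 42.9% in sham, 61.0% in SNI and 66.7% in SNI + G15 on average, and Jund makes up 73.1% of the right bars in sham and 47.0% in SNI.

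The wider AP-1 network was followed in a list of 15 further dimer partners, 14 of them tested, which includes Jun. Between SNI and sham, 8 were higher and 2 lower (57.1% and 14.3%, beside 23.3% and 22.4% of all tested genes). The median log2 fold change was 0.21. Atf3, the injury-induced partner that serves as a mark of axotomised neurons, rose from 7.61 to 264 CPM (counts scaled to library size) (log2 5.12, standard error 0.060), and Gal, another gene known to rise after axotomy, had a log2 fold change of 4.76. Also higher were Jun (log2 1.73), Batf (1.59), Batf3 (1.31), Mafk (0.34), Atf5 (0.18) and Atf4 (0.13), and Jdp2 (-0.26) and Maf (-0.19) were lower. With G15, Maff (log2 0.39, adjusted p = 0.0295) and Jdp2 (log2 0.31, adjusted p = 0.0436) were higher than in SNI and no other partner passed, while DESeq2 called 0 and limma-trend 1 of the 14. The 2 called in edgeR are 14.3%, beside 7.98% of all tested genes called higher. Atf3 and Jun had log2 fold changes of -0.042 (adjusted p = 0.516) and 0.094 (adjusted p = 0.12) there, and Gal one of -0.20 (adjusted p = 0.0625). Against sham, 8 partners were higher and 1 was lower, in SNI + G15, with Maff (log2 0.61) called and Atf5 not among the called, and Atf7 (-0.20) in place of Jdp2 and Maf. The shares were 57.1% and 7.14%, beside 21.4% and 21.9% of all tested genes.

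A list of 52 other immediate early genes, 46 of them tested, was examined in the same way. Like the members and the other lists, it was chosen with earlier results of these data known. Its shares therefore describe the list and are no independent support. Jun and Maff are also in the list of AP-1 partners, and Srf is also in the list of regulators below. Between SNI and sham, 31 were higher and 5 lower (67.4% and 10.9%, beside 23.3% and 22.4% of all tested genes). The median log2 fold change was 0.52. The 6 with the smallest adjusted p among those higher were Socs3, a feedback inhibitor of cytokine signalling (log2 2.79), Vgf, a neuropeptide precursor (2.47), Jun, Gadd45g, a stress-response gene (2.13), Bdnf, a neurotrophin (1.54), and Dusp1, a phosphatase that turns off MAP kinases (0.85). The 5 lower genes were Errfi1 (-0.69), Ccn2 (-0.80), Dusp5 (-0.64), Per1 (-0.30) and Arl4d (-0.83).

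Between SNI + G15 and SNI, 14 of the 46 were higher and none was lower in edgeR, with a median log2 fold change of 0.11. The 14 are 30.4%, where 7.98% of all tested genes were higher and 7.25% lower. These 14 were led by Zfp36, which promotes decay of inflammatory mRNAs (log2 0.44, adjusted p = 0.000839), Socs3 (0.36, adjusted p = 0.00142), Ier3 (0.43, adjusted p = 0.00341), Vgf (0.33, adjusted p = 0.00688), and the matricellular genes Ccn1 (0.73, adjusted p = 0.00749) and Ccn2 (0.53, adjusted p = 0.0113). At an unadjusted p below 0.05 in edgeR, 20 were higher and 2 lower, and DESeq2 and limma-trend each called 10 higher and 0 lower. The count fell to 8 with the replicate number as a block, and to 7, 6 and 6 without SNI library 1, 2 or 3 and 8 without SNI + G15 library 2. Between SNI + G15 and sham, 33 were higher and 4 lower (71.7% and 8.70%, beside 21.4% and 21.9% of all tested genes), with a median of 0.59. Socs3 (3.13), Vgf (2.78) and Gadd45g (2.25) were among the 33, and Errfi1 (-0.77), Dusp5 (-0.66), Per1 (-0.23) and Ccn2 (-0.29) were the 4.

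**Figure D4:**
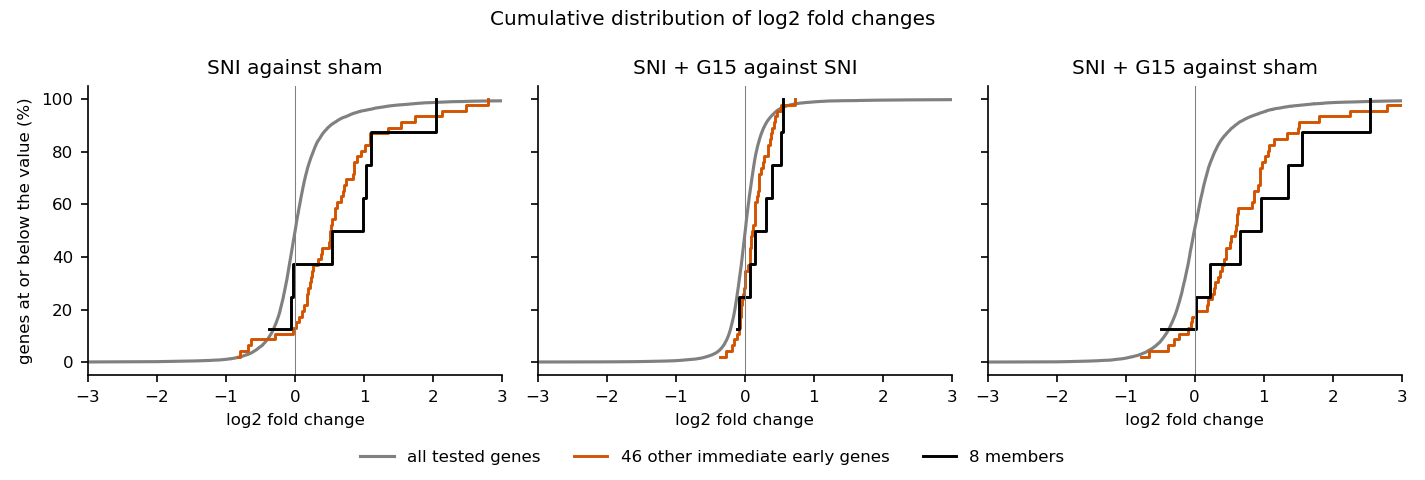
Cumulative share of genes (%) at or below each log2 fold change, for all 14305 tested genes (grey), the 46 tested other immediate early genes (orange) and the 8 tested members (black), in the 3 comparisons. Both lists were chosen with earlier results of these data known. In SNI against sham the medians are 0.0010, 0.52 and 0.76, and in SNI + G15 against SNI they are 0.0063, 0.11 and 0.23; the horizontal axis stops at 3.

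Of 25 tested kinases, transcription factors and their cofactors, listed as regulators of immediate early genes or their products, 8 were higher and 4 lower between SNI and sham. These are 32% and 16%, beside 23.3% and 22.4% of all tested genes, and the median log2 fold change was 0.059. Elk3, a partner of serum response factor, had the smallest adjusted p among the higher ones (log2 0.89), followed by Creb1 (0.48), and Mapk3, which encodes the kinase ERK1, was lower (-0.15). With G15, none was higher than in SNI and 4 were lower, among them Mef2c (log2 -0.30, adjusted p = 0.00744), Rps6ka2 (-0.25, adjusted p = 0.00841) and Mef2a (-0.20). The 4 are 16%, where 7.25% of all tested genes were lower and 7.98% higher. At an unadjusted p below 0.05 in edgeR 2 regulators were higher and 6 lower, while DESeq2 called 0 higher and 4 lower and limma-trend 0 higher and 2 lower. Between SNI + G15 and sham 5 were higher and 7 lower (20% and 28%, beside 21.4% and 21.9% of all tested genes). Of 12 heat shock genes, which mark handling and proteotoxic stress, 4 were higher and 3 lower between SNI and sham. These are 33.3% and 25%, beside 23.3% and 22.4% of all tested genes. The small heat shock gene Hspb1, which injured neurons also raise, was the 1 called higher between SNI + G15 and SNI (log2 0.31, adjusted p = 0.0134). That is 8.33% of the list, beside 7.98% of all tested genes. Against sham, 4 of the 12 were higher and 2 lower in SNI + G15 (33.3% and 16.7%, beside 21.4% and 21.9% of all tested genes).

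Markers of several cell types also differed between groups. Of all tested genes, 23.3% were higher and 22.4% lower in SNI than in sham. The shares were 7.98% and 7.25% in SNI + G15 against SNI, and 21.4% and 21.9% in SNI + G15 against sham. The 10 macrophage markers summed to 198 to 212 CPM in sham, 404 to 430 in SNI and 451 to 465 with G15, with 9 of 10 called higher in SNI than in sham and 2 of 10 higher in SNI + G15 than in SNI. The 12 neuron markers summed to 35914 to 37133 in sham and 27399 to 28485 in SNI, with 8 lower and 2 higher. In SNI + G15 they summed to 27300 to 29711, with 1 higher and 2 lower than in SNI. The 7 Schwann cell markers summed to 10614 to 10850, 5764 to 5902 and 6364 to 6526, and 5 of 7 were lower in SNI than in sham and 5 of 7 higher in SNI + G15 than in SNI. The 6 fibroblast markers summed to 1436 to 1480 CPM in sham, 1377 to 1392 in SNI and 1827 to 1876 with G15. Of these, 2 were higher and 2 lower in SNI than in sham, and 6 of 6 were higher in SNI + G15 than in SNI. The 6 erythroid markers summed to 146 to 169 CPM in sham, 489 to 518 in SNI and 294 to 332 with G15, and 6 of 6 were higher in SNI than in sham (median log2 fold change 1.90), 6 of 6 lower in SNI + G15 than in SNI and 6 of 6 higher in SNI + G15 than in sham. Of 6 satellite glia markers 2 were higher and 1 lower in SNI than in sham, and 2 higher and 2 lower in SNI + G15 than in SNI, and of 6 endothelial markers 1 was higher and 1 lower in each of these comparisons, and 3 higher and 1 lower in SNI + G15 against sham. None of these markers was at 0 in all 9 libraries. Their part in the levels of the immediate early genes was not tested.

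For 4 members, the tested genes with the most similar pattern were found by Euclidean distance over the 9 libraries, on log2 of CPM plus 1 centred on the sham mean. Nearest to Fos were Cdkn1a, which encodes the cell cycle inhibitor p21 (distance 0.35, with centred means of 1.88 in SNI and 2.33 in SNI + G15 against 1.74 and 2.23 for Fos), Cyp4b1 (0.55) and Tubb6 (0.57), a tubulin gene. Nearest to Junb were Medag (0.27), Vcan (0.29), which encodes the matrix proteoglycan versican, and Hsd3b3 (0.31). Egr1 had Ifit1bl (0.24), Adap2 (0.25) and the class I histocompatibility gene RT1-M6-2 (0.26), and Fosl2 had Scd4 (0.33), Arl4a (0.34) and Mtus2 (0.36). Of the lists of immediate early genes, Gadd45g came seventh for Fos (0.60), and it is named here after its value was seen.

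All 9 libraries held between 18484557 and 18756736 estimated reads, so depth differed little, and libraries of a group correlated across genes at 0.991 or above. The labels do not say whether the libraries of a group came from separate animals, and the study's sources differ in the number of rats per group used for RNA-Seq, so whether rats were pooled is not known and the p-values measure only the spread between libraries, which may be technical.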

How the data were processed

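For every gene and transcript the authors deposited FPKM values, normalised for length and library size, and estimated counts, which are not normalised and need not be whole; all 90 values of the members were whole. The submitters' processing notes name the mouse builds GRCm38 and mm10, while 18599 of the 20194 gene identifiers matched the rat RefSeq table of GRCr8, here the source of names and promoter windows only; the aligner is not given in the sources used here. The control columns were read as sham, since SNI and SNI + G15 have columns under their own names. The deposited TPM and group averages, and the plot and identifier tables, were not used.

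After rounding of the estimated counts, edgeR 4.0.16 (TMM factors, quasi-likelihood test; R 4.3.3) was run on the 14305 genes that reached an FPKM of 1 in any library, with only the libraries compared in each fit, and p-values were adjusted over all of them by the Benjamini-Hochberg method at 0.05. The methods name DESeq2, which was an alternative (1.42.0), as was limma-trend (3.58.1) on log2 of FPKM plus 1 or 0.1. Scaled counts (CPM) are counts relative to library size after TMM, and Fosb was taken from a fit of genes with at least 1 read. Standard errors follow from the fitted fold change and its F statistic. An offset for gene length was added after the data were seen. Steps were tested on simulated data. Named were all members, the genes with the smallest adjusted p of each list (up to 4 per direction, 6 for other immediate early genes), called AP-1 partners, Atf3, Gal and the 3 nearest genes, and a few genes so selected are not reported here. The members and lists were chosen with earlier results of these data known. Python 3.11.15 was used for sequences and figures.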

Additional observations from a re-analysis of the deposited data

How the results depend on the processing

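Each count and each fold change of a member was recomputed with DESeq2, limma-trend at both pseudocounts, other normalisations and filters, all 9 libraries in one fit, the replicate number as a block, each library left out, and a length offset added after the data were seen. Over the 51 alternatives the count of called members lay between 5 and 7 in SNI against sham (5 in the main fit). It lay between 2 and 3 in SNI + G15 against SNI (3 in the main fit), and between 4 and 7 against sham (6 in the main fit). Such small counts are coarse, and they do not show which members were called or in which direction. The 14 other immediate early genes called between SNI + G15 and SNI became 8 with the replicate block, 7 with the length offset and block, and 2 with the methods' criteria (unadjusted p below 0.05 and a log2 fold change of at least 0.5), and lay between 6 and 13 with one library left out; fewer libraries were then in the fit. The 2179 genes called there became 1292 with the block, 1232 with the offset and block, 703 with the methods' criteria, and 893 to 2333 with one library left out. With the methods' criteria, 6537 genes called between SNI and sham became 2118, and 6186 between SNI + G15 and sham became 2653. Same-numbered libraries did not deviate together (correlations of -0.13 to 0.069), so no pairing by number was seen. With 3 libraries per group these values cannot settle whether there was one. Beyond the changes of the replicate block given above for Jund and Arc, it changed no other member's call.

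Signs changed only where no call was made. Between SNI and sham these were Fosb without sham library 1 (-0.17) or SNI library 3 (-0.099; range with one library left out -0.17 to 0.52), and Jund (0.049; range -0.12 to 0.049) and Nr4a1 (0.019; range -0.058 to 0.019) without sham library 3. Arc changed between SNI + G15 and SNI without SNI + G15 library 1 (0.012; range -0.16 to 0.012). Nr4a1 changed between SNI + G15 and sham without sham library 1 (-0.011) or 2 (-0.0050) or SNI + G15 library 2 (-0.019; range -0.019 to 0.066), and with the length offset without (-0.056) or with the block (-0.056). Jund was called lower between SNI and sham with the offset and block (-0.13, adjusted p = 0.0179). The cause was not tested. Depth limits Npas4, Fosb and the sham values of Fosl2 most.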
